A study of Homo sapiens with 32 samples.

Results

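The genes described here were 39 that build autophagosomes or load them with cargo. They were chosen by symbol: each transcript row whose RefSeq identifier maps to a listed symbol was taken, and a gene with several rows was represented by its most abundant row, judged by reads summed over the 32 libraries. All 39 had reads, out of 15101 named genes with at least 1 read. They fell into 7 roles: initiation (ULK1, ATG13, RB1CC1, ATG101), the lipid kinase complex (BECN1, ATG14, PIK3C3, PIK3R4, UVRAG, AMBRA1), phagophore growth (WIPI1, WIPI2, WDR45, WDR45B, ATG2A, ATG2B, ATG9A), conjugation (ATG3, ATG4A, ATG4B, ATG4C, ATG4D, ATG5, ATG7, ATG10, ATG12, ATG16L1), the ATG8 proteins (MAP1LC3B, GABARAP, GABARAPL1, GABARAPL2), cargo receptors (SQSTM1, NBR1, OPTN, TAX1BP1, CALCOCO2) and receptors for the endoplasmic reticulum (RETREG1, TEX264, CCPG1).

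The libraries were SLAM-seq libraries of HCT116, an established human colorectal carcinoma line. In SLAM-seq, cells take up 4-thiouridine (s4U) before collection, and reads with T-to-C conversions ("labelled reads") mark RNA made in that time. The parental line carried a doxycycline-inducible (tetON) OsTIR1, the auxin-dependent adaptor that sends degron-tagged proteins for degradation. The tagged line carried the same OsTIR1 and the degron mAID on both endogenous alleles of IGF2BP3, an RNA-binding protein. The titles of replicates 1 and 2 of unstressed tagged cells on vehicle name the tag in duplicate; their genotype label is that of the other tagged libraries, and they were taken as the same line. Each line was left unstressed or was given 5 µg/mL tunicamycin for 5 h, which blocks N-glycosylation and causes endoplasmic reticulum (ER) stress, and each of these was given vehicle or 500 µM auxin (IAA) for 9 h, with DMSO as the control. In all wells, controls included, doxycycline (200 ng/mL) was present for the last 24 h and s4U (250 µM) for the last 2 h, and the other times are likewise counted back from collection. The 8 groups had 4 libraries each, 1 well of a culture plate per library. The labels do not say that replicate wells came from separate cultures, so p-values measure the spread between wells, which may be technical.

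Autophagy encloses cytoplasm in a double membrane and delivers it to the lysosome. The ULK1 kinase complex starts the process, a phosphatidylinositol 3-kinase complex marks the site, WIPI proteins read that mark, ATG2 and ATG9 proteins feed lipid to the growing membrane, and a ubiquitin-like conjugation system attaches ATG8 proteins to it. Cargo receptors bind their cargo and ATG8 proteins at the same time, and a set of such receptors in the ER membrane hands over pieces of the ER itself. Under ER stress, transcription factors such as ATF4 and DDIT3 are known to raise the mRNA of several of these genes.

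Named genes held 0.987 to 6.98 M reads per library (median 3.54 M), and 8.88% to 13.4% of those reads were labelled. The member genes held 4222 to 23538 reads per library, or 0.279% to 0.428% of the named reads, and ATG12 alone held 21.2% of all member reads. All 6 epithelial markers were read in every library, with a summed level of 1876 to 2684 CPM (a gene's reads per M named reads). Of the 8 markers of other cell types, PTPRC, CD3E and COL1A2 had no read in any library, LYZ, DCN, PECAM1 and VWF stayed at or below 1.07 CPM, and COL1A1 was at 18.4 to 59.8 CPM; the summed list was highest in stressed, auxin-treated parental cells (34.0 to 59.8 CPM). Under tunicamycin COL1A1 rose by 0.44 on the log2 scale, as did the epithelial markers CDH1 by 0.62 and KRT18 by 0.20, while CLDN4 fell by 0.24; their part in the members' differences was not tested. The stress genes DDIT3, HSPA5 and ASNS rose under tunicamycin by 5.22, 2.56 and 1.38 on the log2 scale, averaged over lines and auxin. IGF2BP3 mRNA was at 130.0 to 235 CPM, a range that says nothing of the protein, the target of auxin in tagged cells.

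Replicate 1 of stressed, auxin-treated parental cells stood apart. It had the fewest reads of the 32 libraries (0.987 M), ATG12 was at 2617 CPM against 639 to 734 CPM in the other 3 libraries of its group, GABARAP at 581 CPM against 161 to 191 CPM, MAP1LC3B at 71.2 CPM against 203 to 272 CPM, and PIK3C3 had no read. It is called the small library below, and counts are given with and without it. Its part in results that rest on it was otherwise not tested.

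Tunicamycin raised a subset of the members. In total reads, 13 of the 39 members tested rose and 1 fell when the stress difference was averaged over the 4 pairs of groups (parental or tagged, vehicle or auxin), by edgeR's quasi-likelihood test at an adjusted p below 0.05. That is 35.9% of the members, beside 21.9% of all 11184 genes tested, with 11.1% of all genes higher and 10.8% lower. The members' median log2 difference was 0.12, beside 0.01 for all genes. Without the small library the count was 17, beside 30.9% of all genes, with ATG9A (lower), PIK3C3 and RB1CC1 (higher) as the additions. Role by role, 2 of 4 initiation genes rose, 0 of 6 in the lipid kinase complex rose and 1 fell, 3 of 7 phagophore genes rose, as did 2 of 10 conjugation genes, 2 of 4 ATG8 genes and 4 of 5 cargo receptors. None of the 3 ER receptors passed the test.

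**Figure D1:**
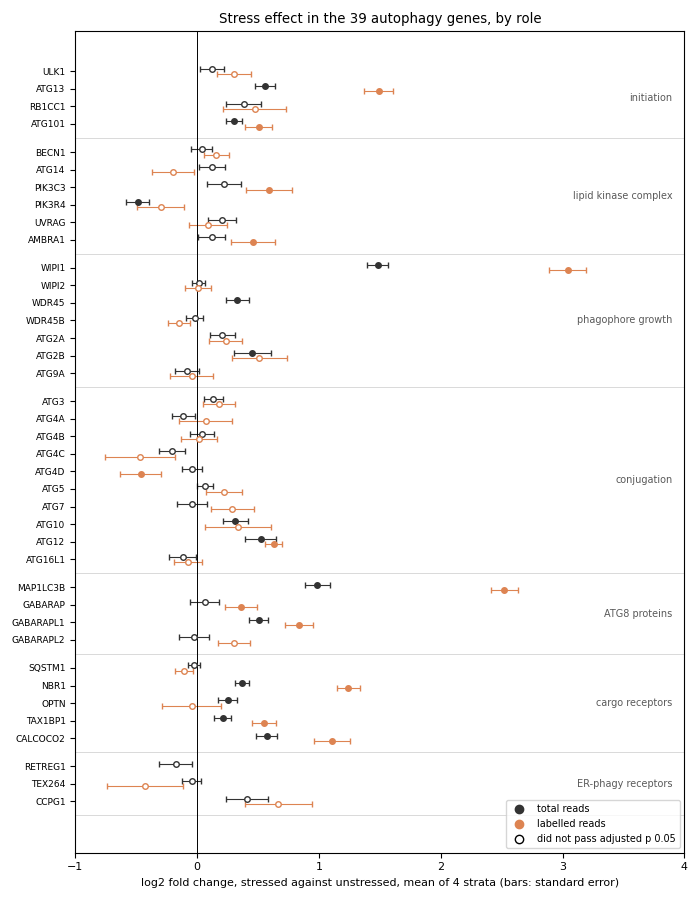
Log2 difference, stressed minus unstressed, averaged over the 4 pairs of groups, for every member tested, ordered by role; black is total reads, orange is labelled reads, bars are the SE and open symbols did not pass an adjusted p of 0.05. WIPI1 and MAP1LC3B lie farthest to the right in both readings (1.48 and 0.98 in total reads, 3.04 and 2.52 in labelled reads).

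WIPI1, MAP1LC3B and GABARAPL1 were the phagophore and ATG8 genes called in total reads, labelled reads and labelled share alike, and ATG3 was the member edgeR called for auxin in total reads with all libraries kept, so the 250 bases before their start sites are printed (RefSeq, GRCh38.p14). The stretches are WIPI1 at chr17:68457497-68457746 (minus strand), MAP1LC3B at chr16:87392086-87392335 (plus), GABARAPL1 at chr12:10212627-10212876 (plus) and ATG3 at chr3:112561963-112562212 (minus), each written 5′ to 3′ with the last base next to the start site. Capitals mark motif matches.
WIPI1: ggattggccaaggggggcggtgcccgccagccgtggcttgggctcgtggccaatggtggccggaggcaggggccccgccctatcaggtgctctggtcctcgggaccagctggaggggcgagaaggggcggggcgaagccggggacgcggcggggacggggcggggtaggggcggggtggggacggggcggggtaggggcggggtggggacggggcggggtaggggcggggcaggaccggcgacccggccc
MAP1LC3B: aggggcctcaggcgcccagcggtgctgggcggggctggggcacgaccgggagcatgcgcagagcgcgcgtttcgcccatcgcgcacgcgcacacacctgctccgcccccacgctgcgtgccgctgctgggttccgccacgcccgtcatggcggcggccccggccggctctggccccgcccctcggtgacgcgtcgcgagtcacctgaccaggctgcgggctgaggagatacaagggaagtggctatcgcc
GABARAPL1: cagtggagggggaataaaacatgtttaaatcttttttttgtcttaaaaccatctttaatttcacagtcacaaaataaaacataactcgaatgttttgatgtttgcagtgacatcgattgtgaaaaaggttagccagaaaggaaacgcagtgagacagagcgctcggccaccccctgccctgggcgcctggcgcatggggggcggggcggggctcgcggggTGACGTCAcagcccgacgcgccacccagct
ATG3: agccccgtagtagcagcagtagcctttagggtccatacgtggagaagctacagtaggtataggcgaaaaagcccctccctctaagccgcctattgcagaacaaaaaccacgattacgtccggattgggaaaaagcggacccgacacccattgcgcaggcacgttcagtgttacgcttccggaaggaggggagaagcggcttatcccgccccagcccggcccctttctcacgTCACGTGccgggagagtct
Motifs were searched on both strands in windows of 300 bases (250 before and 50 after the start). The C/EBP-ATF core TGATGNAA lay in 3.617% of 35116 windows and in 1 of 45 member windows, that of WDR45. The CLEAR core TCACGTG, named after lysosomal genes, lay in 3.711% of windows and in those of ATG3 and ATG14. In ATG3 the printed match begins 19 bases before the start. The ER stress element lay in 0.077% of windows and in 0 of 45 member windows. The cAMP response element TGACGTCA, a palindrome added to the search after the sequences were seen, lay in 1.848% of windows and in that of GABARAPL1, beginning 30 bases before the start. The WIPI1 and MAP1LC3B windows held none of the 4 motifs. Windows were matched for 35 members; RB1CC1, UVRAG, WDR45B and ATG4D were named only. A match or its lack describes these letters alone.

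In the initiation complex, ATG13, the scaffold that joins ULK1 to its partners, rose the most. Unstressed parental cells on vehicle had ATG13 at 38.8, 31.5, 48.03 and 42.8 CPM, and stressed ones at 76.7, 68.5, 64.6 and 61.5 CPM. On auxin the parental values were 49.5, 47.8, 45.4 and 47.6 CPM unstressed and 30.5, 83.4, 76.3 and 59.1 CPM stressed. Tagged cells on vehicle had ATG13 values of 52.7, 47.7, 38.2 and 57.3 against 75.8, 67.3, 63.1 and 72.3 CPM. The groups did not overlap in either vehicle pair, and in parental auxin cells only the small library fell among or below the unstressed values. ATG13 in tagged cells on auxin went from 48.1, 49.5, 49.5 and 50.1 CPM to 77.9, 75.8, 64.4 and 69.7 CPM, again without overlap. Averaged over the pairs, the log2 difference was 0.56 ± 0.08 (SE, edgeR adjusted p = 3.54e-06). ATG101, which steadies ATG13, rose by a log2 difference of 0.30 ± 0.07 (edgeR adjusted p = 0.000816), with overlap in all 4 pairs; its group means ran from 55.6 to 86.0 CPM. RB1CC1, the large scaffold also called FIP200, had 0.38 ± 0.15 (edgeR adjusted p = 0.0617), and ULK1, the kinase itself, had 0.12 ± 0.10 (edgeR adjusted p = 0.439).

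In the lipid kinase complex no member rose in total reads, and PIK3R4, the regulatory subunit VPS15, fell. PIK3R4 was at 20.7, 17.9, 20.6 and 22.4 CPM in unstressed and 17.9, 19.5, 15.1 and 18.5 CPM in stressed parental cells on vehicle. On auxin it was at 22.9, 21.7, 24.4 and 26.9 CPM and 5.09, 16.7, 11.1 and 11.8 CPM. The latter pair was the only one whose groups did not overlap, and it holds the small library at the lowest value. In tagged cells PIK3R4 was at 22.2, 19.3, 19.4 and 23.1 against 21.7, 13.3, 18.8 and 14.3 CPM on vehicle. It was at 25.1, 27.2, 28.1 and 15.7 against 18.9, 16.2, 16.4 and 17.8 CPM on auxin. Averaged, PIK3R4 had a log2 difference of -0.49 ± 0.09 (edgeR adjusted p = 0.000203), and it was -0.46 without the small library. BECN1, the core subunit, did not pass the test (group means 142 to 166 CPM) with a log2 difference of 0.04 ± 0.08 (edgeR adjusted p = 0.819).

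Among phagophore genes, WIPI1, which binds the lipid made by that kinase, changed more than any other member. Parental cells on vehicle had WIPI1 at 13.7, 17.9, 12.1 and 17.03 CPM unstressed and 45.2, 48.1, 48.3 and 44.5 CPM stressed. With auxin they had 14.4, 17.6, 17.5 and 26.9 CPM and 43.2, 51.4, 46.05 and 48.05 CPM. All stressed libraries, the small library included, lay above all unstressed ones. Tagged cells on vehicle had 20.7, 14.1, 17.2 and 15.5 CPM and 46.2, 57.4, 39.7 and 45.6 CPM. Tagged cells on auxin had 11.0, 15.4, 18.1 and 19.5 CPM and 37.8, 46.3, 46.8 and 50.8 CPM. The averaged log2 difference was 1.48 ± 0.09, or 2.79-fold (edgeR adjusted p = 7.8e-15), and all 4 pairs passed the test by themselves, at 1.32 to 1.62. WDR45, a WIPI relative, rose by 0.33 ± 0.10 (edgeR adjusted p = 0.0121) and ATG2B, a lipid transfer protein, by 0.45 ± 0.15 (edgeR adjusted p = 0.0288). Over the 4 pairs WDR45 ran from 0.11 to 0.67 and ATG2B from 0.13 to 0.93, each called in 1 pair. Their groups were apart only in parental cells on vehicle. ATG2B rested on 2 to 93 reads per library, and its adjusted p was 0.054 to 0.0575 when replicate 2 of stressed parental cells on auxin, replicate 2 of those on vehicle or replicate 4 of stressed tagged cells on auxin was left out. The other WIPI genes, WIPI2 at 0.01 ± 0.05 (edgeR adjusted p = 0.917) and WDR45B at -0.02 ± 0.07 (edgeR adjusted p = 0.87), did not pass.

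**Figure D2:**
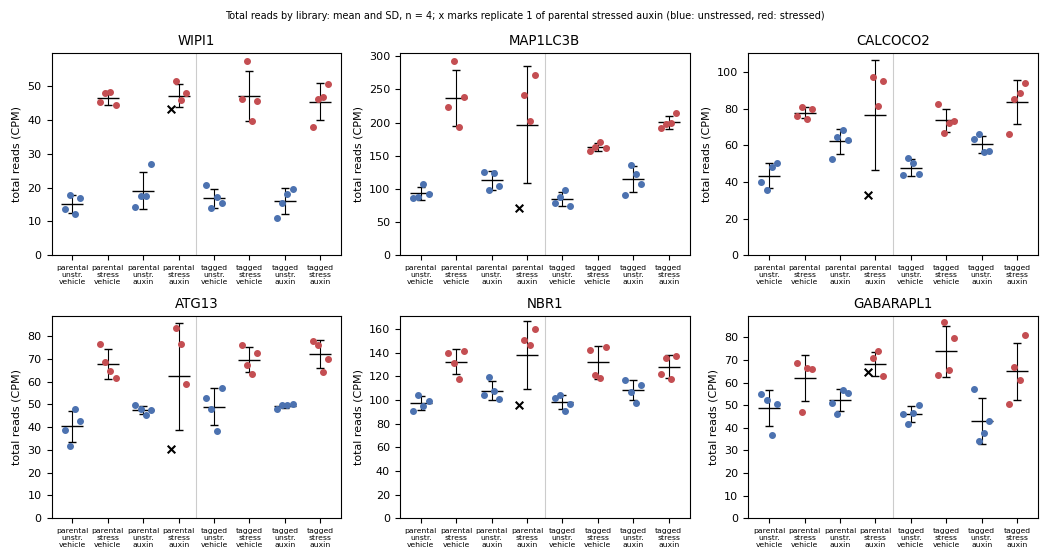
Total reads (CPM) in each library for the members that rose most, by group; blue is unstressed, red is stressed, bars are mean and SD (n = 4) and a black x marks the small library. The 16 stressed WIPI1 values (37.8 to 57.4 CPM) all lie above the 16 unstressed ones (11.0 to 26.9 CPM).

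Of the 10 conjugation genes, ATG12 and ATG10 rose. ATG12 is the ubiquitin-like protein joined to ATG5. In parental cells on vehicle ATG12 was at 628, 733, 539.7 and 595 CPM unstressed and 710.3, 789, 702 and 799 CPM stressed. In parental cells on auxin it was at 546, 508, 550.1 and 537 CPM and 2617, 639, 683 and 734 CPM. With the tag and vehicle it was at 569.5, 631, 608 and 621 CPM and 774, 792, 705 and 802 CPM. In 3 of the 4 pairs the groups did not overlap, the exception being parental cells on vehicle. With the tag and auxin it was at 520.0, 554, 589 and 542 CPM and 704, 714, 728 and 698 CPM. ATG12 had an averaged log2 difference of 0.52 ± 0.13 (edgeR adjusted p = 0.00255), and without the small library it was 0.33 ± 0.04 (edgeR adjusted p = 4.3e-09). ATG10, the enzyme that passes ATG12 to ATG5, rose by 0.31 ± 0.10 (edgeR adjusted p = 0.024), with overlap in all 4 pairs and the highest value, 42.0 CPM, in the small library. The remaining 8 lay between -0.21 (ATG4C) and 0.13 (ATG3) and did not pass.

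The ATG8 proteins are the small proteins fixed to the membrane, and MAP1LC3B, the gene of the common autophagosome marker LC3B, rose in all 4 pairs. On vehicle, parental cells had MAP1LC3B at 86.9, 87.2, 108 and 91.97 CPM unstressed and 223, 293, 194 and 239 CPM stressed. On auxin the values were 125, 97.7, 125 and 104 CPM and 71.2, 242, 203 and 272 CPM. The small library was the only stressed library that fell below unstressed ones of its pair. Tagged cells had 79.0, 87.6, 97.8 and 74.6 CPM and 158, 164, 171 and 162 CPM on vehicle. They had 91.5, 137, 122 and 107 CPM and 191, 198, 199 and 215 CPM on auxin. The averaged log2 difference was 0.98 ± 0.10, or 1.98-fold (edgeR adjusted p = 5.94e-09), with 0.81 to 1.34 in the pairs. A near-identical copy, MAP1LC3B2, did not pass the filter on low counts. The deposited count of reads mapping to several places was 0 over all libraries. How reads common to the pair were placed is not otherwise given in the sources used here.

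GABARAPL1 also rose, and the other GABARAP genes did not pass the test in total reads. Parental cells had GABARAPL1 at 55.05, 52.4, 36.9 and 50.6 CPM unstressed and 68.6, 46.8, 66.5 and 66.2 CPM stressed on vehicle. On auxin they had 50.8, 46.1, 56.6 and 55.4 CPM and 64.9, 70.9, 74.1 and 63.1 CPM. Tagged cells on vehicle had 45.9, 41.9, 46.6 and 50.2 CPM and 63.4, 86.6, 65.5 and 79.7 CPM. The groups did not overlap in the latter pairs, while 1 stressed library overlapped in parental cells on vehicle. Tagged cells on auxin, with overlap, had 57.1, 34.3, 37.5 and 42.9 CPM and 50.5, 67.1, 61.2 and 81.01 CPM. GABARAPL1 had an averaged log2 difference of 0.51 ± 0.08 (edgeR adjusted p = 1.01e-05). GABARAP had 0.06 ± 0.12 (edgeR adjusted p = 0.777; -0.09 without the small library) and GABARAPL2 had -0.03 ± 0.12 (edgeR adjusted p = 0.92).

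Of the cargo receptors, CALCOCO2, NBR1, OPTN and TAX1BP1 rose and SQSTM1 did not pass. CALCOCO2, also called NDP52, binds invading bacteria and damaged mitochondria. Parental cells had CALCOCO2 at 40.1, 35.4, 48.03 and 50.1 CPM unstressed and 75.97, 80.99, 74.3 and 79.8 CPM stressed on vehicle. On auxin they had 52.4, 64.8, 68.5 and 62.9 CPM and 33.1, 97.1, 81.3 and 95.1 CPM. The groups were apart on vehicle, and on auxin the small library lay below every unstressed value. Tagged cells had 43.6, 53.3, 50.2 and 44.1 CPM and 82.4, 66.9, 71.9 and 73.04 CPM on vehicle. On auxin they had 63.3, 65.9, 56.6 and 56.96 CPM and 66.4, 85.5, 88.5 and 93.9 CPM. No tagged library broke the order, and the averaged log2 difference was 0.57 ± 0.09 (edgeR adjusted p = 5.19e-06).

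NBR1 binds ubiquitin-marked protein clumps together with SQSTM1. Its values were 91.0, 104, 95.1 and 99.5 CPM unstressed and 139.5, 131, 118 and 141 CPM stressed in parental cells on vehicle. They were 104, 119, 108 and 101 CPM and 95.4, 151, 146 and 159.7 CPM on auxin. In tagged cells on vehicle NBR1 was at 102, 104, 91.01 and 96.9 CPM and 143, 121, 119 and 145 CPM. Groups were apart in 3 pairs and overlapped in parental cells on auxin through the small library. In tagged cells on auxin NBR1 was at 117, 107, 97.7 and 113 CPM and 122, 136, 118 and 137 CPM. The averaged log2 difference of NBR1 was 0.37 ± 0.06 (edgeR adjusted p = 7.9e-06). TAX1BP1, another ubiquitin-binding receptor, rose by 0.21 ± 0.07 (edgeR adjusted p = 0.026), and by 0.25 without the small library; its adjusted p was 0.0515 without replicate 4 of stressed parental cells on auxin. OPTN, the receptor optineurin, rose by 0.25 ± 0.08 (edgeR adjusted p = 0.0204), with overlap in all 4 pairs.

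SQSTM1, the receptor p62 and the member with the second highest read count, did not pass the test. In parental cells on vehicle SQSTM1 was at 329, 307, 342 and 333 CPM unstressed and 367, 326, 293 and 339.9 CPM stressed. On auxin it was at 268, 329, 313 and 317 CPM and 243, 299, 336 and 292 CPM. Tagged cells on vehicle had 274, 276, 304 and 308 CPM and 269, 286, 278 and 308 CPM. The groups overlapped in every pair. Tagged cells on auxin had 338, 353, 275 and 289.5 CPM and 296, 326, 290.2 and 317 CPM. Its averaged log2 difference was -0.03 ± 0.05 (edgeR adjusted p = 0.778).

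None of the ER receptors passed the test in total reads. RETREG1, also called FAM134B, shapes ER sheets; its libraries ran from 1.27 to 18.8 CPM and its log2 difference was -0.18 ± 0.13 (edgeR adjusted p = 0.397). TEX264, a receptor in ER tubules, ran from 16.9 to 30.9 CPM with -0.04 ± 0.08 (edgeR adjusted p = 0.751). CCPG1, a receptor known as a target of the ER stress response, was at 2.86, 1.78, 9.70 and 5.60 CPM unstressed and 9.87, 14.8, 4.62 and 11.01 CPM stressed in parental cells on vehicle. On auxin its parental values were 10.3, 10.5, 10.9 and 8.31 CPM and 10.2, 7.30, 8.88 and 12.01 CPM. Tagged cells had CCPG1 at 6.02, 8.50, 4.21 and 5.25 against 8.62, 9.20, 8.80 and 4.20 CPM on vehicle. The groups overlapped in all pairs, tagged cells on auxin among them. That last pair had 6.88, 14.2, 9.38 and 7.71 against 13.5, 12.04, 11.3 and 13.5 CPM. The averaged log2 difference of CCPG1 was 0.41 ± 0.17 (edgeR adjusted p = 0.096) on 6 to 83 reads per library. Without the small library it was 0.41 (edgeR adjusted p = 0.0647), and in parental cells on vehicle CCPG1 was then called at 0.98 ± 0.33 (edgeR adjusted p = 0.0228).

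**Figure D3:**
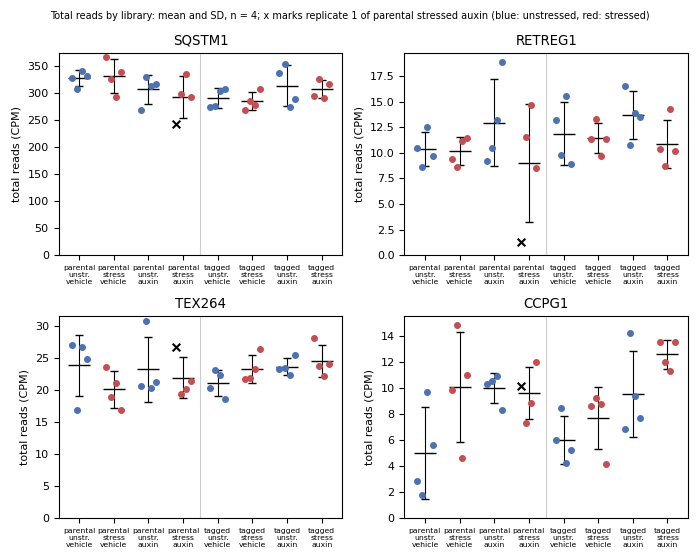
Total reads (CPM) in each library for SQSTM1 and the ER receptors RETREG1, TEX264 and CCPG1, by group; blue is unstressed, red is stressed, bars are mean and SD (n = 4) and a black x marks the small library. Stressed and unstressed values overlap in every pair of groups for all 4 genes.

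By pair of groups, 7 members were called in parental cells on vehicle (17.9%, beside 12.9% of all genes), 5 in parental cells on auxin (12.8%, beside 10.5%), 5 in tagged cells on vehicle (12.8%, beside 4.04%) and 3 in tagged cells on auxin (7.69%, beside 4.15%). Without the small library these counts were 15 (30.3% of all genes), 9 (9.3%), 8 (7.76%) and 7 (8.15%). No member's stress difference itself differed between tagged and parental cells on vehicle by edgeR (smallest adjusted p = 0.649; 0 with an unadjusted p below 0.05; 0 called by DESeq2), and 0% of all genes were called there. The same held between auxin and vehicle in tagged cells (smallest adjusted p = 1.00, 0 and 0, 0% of all genes), so these zeros say nothing particular of the members. Of all 11184 genes, 823 and 152 had an unadjusted p below 0.05 in these comparisons, in that order.

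Labelled reads gave larger differences. Library-wide, the labelled percentage was 11.4% to 13.4% in unstressed libraries and 8.88% to 12.7% in stressed libraries. The 8.88% was that of the small library, and the next lowest stressed library had 10.3%. Labelled reads were therefore scaled within themselves, and a difference is relative to the typical gene. Of 37 members tested, 12 rose and 1 fell in labelled reads, or 35.1%, beside 34.6% of all 8978 genes (16.9% higher and 17.6% lower). The share called was thus close to that of all genes, while the members' median log2 difference was 0.29, beside -0.03. RETREG1 and WDR45 did not pass the filter on low labelled counts. The count was 16 without the small library (39% of all genes), with CCPG1, GABARAPL2 and ULK1 added. In the pairs 8, 9, 7 and 8 members were called, beside 17.1%, 11.3%, 9.4% and 9.78% of all genes, in the order parental vehicle, parental auxin, tagged vehicle and tagged auxin. Those counts are 21.6%, 24.3%, 18.9% and 21.6% of the members.

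WIPI1 and MAP1LC3B again led. WIPI1 labelled reads rose by a log2 difference of 3.04 ± 0.15, or 8.24-fold, MAP1LC3B by 2.52 ± 0.11, or 5.74-fold, and ATG13 by 1.49 ± 0.12, all with edgeR adjusted p values of 1.62e-17 or lower. Next came NBR1 at 1.24 ± 0.09, CALCOCO2 at 1.11 ± 0.15, GABARAPL1 at 0.83 ± 0.11, ATG12 at 0.63 ± 0.07 and TAX1BP1 at 0.55 ± 0.10 (edgeR adjusted p of 6.36e-06 or lower). Another 4 rose by less firm margins: PIK3C3, the lipid kinase itself, at 0.59 ± 0.19 (edgeR adjusted p = 0.0115), ATG101 at 0.50 ± 0.11 (0.000151), AMBRA1, a regulator of BECN1, at 0.46 ± 0.18 (0.0392) and GABARAP at 0.36 ± 0.13 (0.0237). Over the 4 pairs AMBRA1 ran from -0.17 to 1.71, the highest in tagged cells on auxin, and was called in 1. PIK3C3 ran from 0.07 to 1.23 and ATG101 from 0.21 to 0.85, each called in 1 pair. GABARAP ran from 0.20 to 0.62 and was called in 0 pairs. ATG4D, a protease that trims ATG8 proteins, fell by 0.46 ± 0.17 on the log2 scale (edgeR adjusted p = 0.0266), a call lost in 3 of the fits that left out 1 library.

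When labelled reads were scaled by each library's total reads, which keeps the library-wide drop, the median of all genes was -0.28 and the members called became 8 higher and 7 lower. The share of all genes called under this scaling is not given here, so these counts say nothing particular of the members. WIPI1, MAP1LC3B, ATG13, NBR1, CALCOCO2, GABARAPL1, ATG12 and TAX1BP1 were still called higher. ATG101 (0.25, edgeR adjusted p = 0.0526), PIK3C3 (0.35, 0.13) and GABARAP (0.11, 0.485) were not, and SQSTM1 (-0.36, 0.000184), PIK3R4 (-0.54, 0.0167) and ATG14 (-0.45, 0.0221) were called lower.

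The labelled share compares labelled with other reads of the same gene in the same library. WIPI1 labelled reads made up 16.3, 16.7, 7.84 and 12.9% of its reads in unstressed and 32.99, 37.2, 37.2 and 42.4% in stressed parental cells on vehicle. In tagged cells on vehicle the WIPI1 percentages were 12.7, 11.6, 13.2 and 8.47% and 34.3, 30.9, 19.1 and 44.9%. Stressed libraries were above unstressed ones in both pairs. MAP1LC3B labelled reads made up 8.79, 10.6, 8.97 and 8.99% unstressed and 19.3, 24.2, 23.2 and 27.4% stressed in parental cells on vehicle. On auxin the parental MAP1LC3B percentages were 9.89, 7.99, 12.8 and 7.69% and 17.9, 28.7, 19.9 and 23.4%. MAP1LC3B in tagged cells on vehicle had 14.8, 8.96, 11.9 and 10.9% and 23.4, 31.5, 20.2 and 27.3%. MAP1LC3B groups were apart in all 4 pairs, the small library included. MAP1LC3B in tagged cells on auxin had 12.03, 7.71, 10.6 and 7.22% and 21.8, 21.8, 24.0 and 23.7%. WIPI1 overlapped in no pair but tagged cells on auxin, where the unstressed percentages were 28.1, 20.6, 26.8 and 12.7% and the stressed ones 29.6, 27.3, 33.3 and 32.9%.

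In the test of the share, centred on the typical gene, 10 of 37 members rose and 2 fell, or 32.4%, beside 28.2% of all 8978 genes (13.5% higher and 14.7% lower); without the small library the same 12 were called, beside 28.4%. The members' median was 0.17 and that of all genes -0.06. In the pairs 6, 4, 5 and 5 members were called (16.2%, 10.8%, 13.5% and 13.5%), beside 8.19%, 8.1%, 7.1% and 7.12% of all genes. WIPI1 rose by 1.97 ± 0.18 (edgeR adjusted p = 1.14e-16), MAP1LC3B by 1.82 ± 0.09 (3.27e-35), ATG13 by 1.10 ± 0.14 (6.03e-11) and NBR1 by 1.00 ± 0.10 (6.96e-15). CALCOCO2 followed at 0.62 ± 0.14 (edgeR adjusted p = 0.000186). All 4 ATG8 genes were called higher, with GABARAP at 0.46 ± 0.12 (edgeR adjusted p = 0.00208), GABARAPL1 at 0.40 ± 0.12 (0.00977) and GABARAPL2 at 0.36 ± 0.13 (0.0236). TAX1BP1 was at 0.38 ± 0.10 (edgeR adjusted p = 0.0014) and ATG12 at 0.22 ± 0.05 (0.001). ATG14, the subunit that places the lipid kinase at the ER, fell by 0.51 ± 0.18 (edgeR adjusted p = 0.0248), and ATG4D fell by 0.45 ± 0.17 (0.0321). The ATG4D call was lost in 11 of the fits that left out 1 library, and that of ATG14 without replicate 4 of either stressed tagged group.

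Without centring, the median of all genes was -0.36 and 5 members were called higher and 9 lower. How many of all genes were called in that fit is not given here, so these counts say nothing particular of the members. MAP1LC3B (1.51), WIPI1 (1.64), ATG13 (0.79), NBR1 (0.70) and CALCOCO2 (0.32, edgeR adjusted p = 0.0455) kept their direction and call. GABARAPL1 (0.09, edgeR adjusted p = 0.559), GABARAP (0.16, 0.288) and TAX1BP1 (0.08, 0.529) did not pass, and ATG12 turned to -0.10 (0.206). SQSTM1 (-0.40, edgeR adjusted p = 6.64e-06), OPTN (-0.58, 0.0351) and TEX264 (-0.69, 0.0335) were called lower there, and not with centring, where SQSTM1 was at -0.09 ± 0.07 (0.303). SQSTM1 percentages were 14.8 to 19.6% unstressed and 12.2 to 14.6% stressed in parental cells on vehicle and 14.6 to 19.04% and 9.95 to 14.2% on auxin, without overlap. In tagged cells they were 14.3 to 19.3% and 12.7 to 14.4% on vehicle and 11.9 to 15.97% and 9.27 to 13.1% on auxin, with overlap in both pairs.

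**Figure D4:**
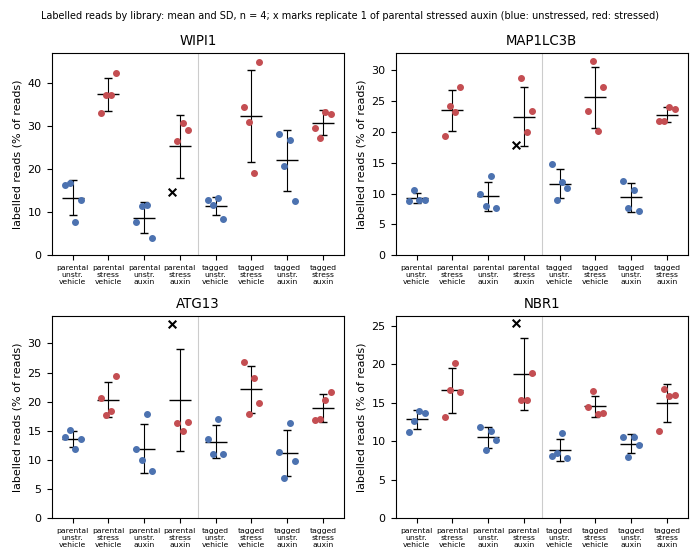
Labelled reads as a percentage of a gene's reads in each library for members called in the share, by group; blue is unstressed, red is stressed, bars are mean and SD (n = 4) and a black x marks the small library. MAP1LC3B lies at 7.22% to 14.8% in unstressed and 17.9% to 31.5% in stressed libraries.

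Across the 3 readings, 8 members were called in each (ATG12, ATG13, CALCOCO2, GABARAPL1, MAP1LC3B, NBR1, TAX1BP1 and WIPI1), 20 in at least 1 and 19 in none. That is 20.5% of the members in all 3 readings, beside 6.7% of all genes, and 51.3% in at least 1, beside 40%. The base was the 11184 genes tested in total reads, of which 8978 were tested in labelled reads and share. For the members it was 39, of which 37 were so tested. Genes not tested there could not be called in all 3, so these shares are not over like sets. The readings share libraries, and labelled reads are part of total reads, so they are not separate evidence. The 19 include ULK1, BECN1, ATG5, ATG7, ATG16L1, ATG9A, SQSTM1 and the 3 ER receptors.

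With all libraries kept, edgeR called 1 member for auxin in total reads, ATG3, the enzyme that transfers ATG8 proteins to lipid. In unstressed tagged cells, where 0.68% of all genes were called, ATG3 went from 48.5, 51.3, 54.1 and 43.6 CPM on vehicle to 74.97, 109, 91.9 and 83.1 CPM on auxin. Every auxin library was above every vehicle one. The log2 difference was 0.86 ± 0.15, or 1.82-fold (edgeR adjusted p = 0.00692). Stressed tagged cells had 54.8, 57.1, 65.5 and 50.6 CPM on vehicle and 84.1, 72.8, 91.5 and 84.6 CPM on auxin, without overlap, at 0.55 ± 0.15 (edgeR adjusted p = 0.231; 0.0377 without the small library). Unstressed parental cells, which lack the degron, had 57.6, 39.3, 60.6 and 63.99 CPM and 65.7, 52.9, 66.2 and 61.8 CPM. Those groups overlapped, as did the stressed parental groups.

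ATG3 in stressed parental cells was at 60.4, 90.3, 64.6 and 72.7 CPM on vehicle and 64.9, 62.99, 51.6 and 77.3 CPM on auxin. The parental log2 differences were 0.16 (edgeR adjusted p = 0.542) unstressed and -0.17 (0.612) stressed. The auxin difference of tagged cells minus that of parental cells was 0.71 ± 0.21 unstressed (edgeR adjusted p = 0.452) and 0.72 ± 0.21 stressed (0.166), so it was not shown to differ between the lines. The ATG3 call in unstressed tagged cells was lost without replicate 2 on auxin (edgeR adjusted p = 0.0654) or replicate 4 on vehicle (0.0572). In labelled reads and in the centred share edgeR did not call ATG3 for auxin. Its labelled percentage was lower on auxin, without overlap, in unstressed parental cells (13.7 to 19.7% on vehicle and 7.19 to 9.62% on auxin; share difference -1.06 ± 0.27, edgeR adjusted p = 0.059) and in stressed tagged cells (14.8% ± 2.42 and 10.1% ± 1.99, SD, n = 4; -0.45 ± 0.26, 0.766). The first of these was called when the share was not centred.

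**Figure D5:**
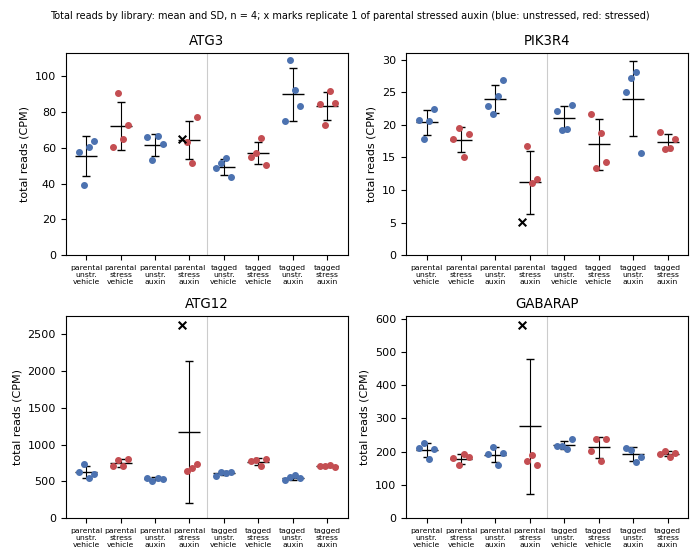
Total reads (CPM) in each library for ATG3, PIK3R4, ATG12 and GABARAP, by group; blue is unstressed, red is stressed, bars are mean and SD (n = 4) and a black x marks the small library. ATG3 is at 43.6 to 54.1 CPM in unstressed tagged cells on vehicle and 75.0 to 109 CPM on auxin, and the small library stands at 2617 CPM for ATG12 and 581 CPM for GABARAP.

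The nearest other members in unstressed tagged cells, chosen after their values were seen, were ATG2A, a lipid transfer protein, and ATG5, the partner of ATG12. ATG2A was at 38.6 to 51.5 CPM on vehicle and 20.6 to 29.6 CPM on auxin (-0.84 ± 0.21, edgeR adjusted p = 0.0507). ATG5 was at 30.4 to 37.2 CPM and 43.0 to 54.4 CPM (0.52 ± 0.14, edgeR adjusted p = 0.0567). Neither pair overlapped, and DESeq2 called both genes beside ATG3. Without the small library, which is in neither group, 7 members (17.9%) were called in unstressed tagged cells, beside 16.1% of all genes. These were ATG3 (0.87), ATG5 (0.52), GABARAPL2 (0.52), MAP1LC3B (0.44), CALCOCO2 (0.35), ATG4B (-0.35) and ATG2A (-0.85). In unstressed parental cells 5 (12.8%) were then called, beside 25.1% of all genes. They were CCPG1 (0.96), PIK3C3 (0.68), CALCOCO2 (0.51), GABARAPL2 (0.44) and ATG12 (-0.21). The tagged share was close to that of all genes and the parental share below it, so neither count is a result about the members. In that fit CALCOCO2 and GABARAPL2 rose with auxin in unstressed cells with and without the degron. In stressed tagged cells ATG3 (0.54) and ATG9A (-0.45) were called, beside 2.51%.

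With all libraries, 0 members were called for auxin in unstressed parental, stressed parental or stressed tagged cells. The smallest edgeR adjusted p values were 0.0649, 0.183 and 0.231, beside 7.16%, 0.0179% and 0.0179% of all genes called. An unadjusted p below 0.05 was met by 4, 7 and 3 of 39 members, beside 2726, 1774 and 1530 of all 11184 genes. DESeq2 called CALCOCO2 in the first, ATG2A in the second and none in the third. In labelled reads, again with all libraries, edgeR and DESeq2 called 0 members in all 4 auxin comparisons. In unstressed parental, stressed parental, unstressed tagged and stressed tagged cells, 0.601%, 0.0111%, 0.223% and 0% of all genes were called there. An unadjusted p below 0.05 was met by 5, 2, 7 and 1 of 37 members, beside 1242, 606, 1113 and 953 of 8978 genes. Without the small library edgeR called 1 member in labelled reads, ATG2A in unstressed tagged cells (-0.98, edgeR adjusted p = 0.0295), beside 1.86% of all genes. In the share, with all libraries, edgeR called 0, beside 0.212% of all genes called in the first and 0% in the others. The unadjusted counts were 4, 1, 3 and 2 members, beside 684, 476, 651 and 618 of 8978 genes. Unadjusted counts are given as description and not as a result about the members.

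The tagged and parental lines on vehicle differed in 0 members by edgeR, unstressed (beside 0.241% of all genes called) or stressed (beside 0.411%). DESeq2 called 0 in each. An unadjusted p below 0.05 was met by 2 and 5 of 39 members, beside 790 and 1290 of 11184 genes. Among stressed cells, members chosen after their values were seen were ATG2B (-0.62, edgeR adjusted p = 0.418), ATG2A (0.59, 0.264) and MAP1LC3B. MAP1LC3B was at 158 to 171 CPM in tagged and 194 to 293 CPM in parental cells, without overlap (-0.54 ± 0.20, edgeR adjusted p = 0.311). Without the small library MAP1LC3B (-0.53) and ATG2A (0.60) were called there, beside 3.45% of all genes. The auxin difference of tagged minus parental cells gave 0 members unstressed (3 at an unadjusted p below 0.05, smallest edgeR adjusted p = 0.242) and stressed (9, 0.166); DESeq2 called ATG2A in each. For all genes edgeR called 0.0179% and 0% in these, with 665 and 2430 of 11184 genes at an unadjusted p below 0.05. Without the small library 1 member was called unstressed, beside 0.59% of all genes, and 0 stressed, beside 0%. In labelled reads and share, edgeR called 0 members in every comparison of lines and of differences, beside at most 0.1% of all genes (labelled, stressed lines) and 0.0111% in the other comparisons of lines. At an unadjusted p below 0.05 there were 3 and 1 members in labelled reads and 4 and 1 in the share, for unstressed and stressed lines. Of all 8978 genes, 499 and 861 in labelled reads and 481 and 583 in the share met that unadjusted threshold. The next counts are for the stress difference between lines, that between auxin and vehicle, and the auxin difference between lines unstressed and stressed. Members at that threshold numbered 0, 4, 4 and 2 in labelled reads and 2, 3, 3 and 0 in the share. All 8978 genes gave 593, 308, 462 and 1035 in labelled reads and 512, 475, 414 and 539 in the share. DESeq2 called 0 members in labelled reads. These unadjusted counts are not read as a result about the members.

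A list of 38 other genes of the pathway was counted beside the members, and it too was put together with earlier results of these data known. In total reads 2 of 33 tested rose and 1 fell under stress, or 9.09%, beside 21.9% of all genes. These were TMEM41B, an ER scramblase needed for phagophore growth, by 1.07 ± 0.11 (edgeR adjusted p = 2.3e-09), NRBF2, a part of the lipid kinase complex, by 0.40 ± 0.09 (0.000764) and ULK3, a ULK1 relative, by -0.28 ± 0.10 (0.0423). TMEM41B passed in each of the 4 pairs, at 0.89 to 1.38. In labelled reads 7 of 31 rose (TMEM41B 1.89, BNIP3L 0.78, NRBF2 0.71, VMP1 0.55, BCL2L13 0.38, SEC62 0.35 and YKT6 0.29) and 2 fell (ULK2 -0.75 and ULK3 -0.33), or 29%, beside 34.6% of all genes. BNIP3L is a receptor for mitochondria and SEC62 a receptor for the ER. In the share 9 of 31 rose and 2 fell, or 35.5%, beside 28.2%.

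Of 23 lysosome genes, 1 of 21 tested rose in total reads, TFE3, a transcription factor of lysosomal genes, by 0.40 ± 0.09 (edgeR adjusted p = 0.00163), which is 4.76%, beside 21.9% of all genes. In labelled reads 5 of 18 rose, among them NPC1 (0.56), TFE3 (0.47), ATP6AP1 (0.36) and PSAP (0.26), and 1, the protease gene CTSB, fell by 0.61 on the log2 scale, together 33.3%, beside 34.6% of all genes. In the share 3 of 18 rose and 1 fell, or 22.2%, beside 28.2%.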

How the data were processed

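SLAM-seq libraries were made with a 3′-end kit, per the labels' protocols. The authors deposited 1 table per library, in the Slamdunk layout per the file headers, with whole-number counts of reads and of labelled reads (those with T-to-C conversions) for each transcript row; the build was hg38 per the submitters' processing notes, and versions and thresholds are not given in the sources used here. Transcript identifiers were matched to RefSeq (GRCh38.p14): 40002 of 40767 NM, 6326 of 33066 XM and 0 of 21749 other rows matched. Unmatched rows (36.9% to 43.5% of counts) stayed out of library sizes, and 72 genes with counts identical to another gene's were dropped.

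The counts were tested with edgeR 4.0.16 in R 4.3.3 (quasi-likelihood, TMM factors, filterByExpr, all 8 groups of 4 libraries in 1 fit, Benjamini-Hochberg adjustment over all genes tested, threshold 0.05). CPM use the TMM-scaled named reads of each library, with the counts behind them at 0 to 5519 reads per member and library. The labelled share was tested in edgeR on labelled and other reads together, with a term per library and each kind scaled by its own factors, which centres it on the typical gene. Alternatives were DESeq2 1.42.0, limma 3.58.1, RLE factors, no filter, only the groups compared, the longest region per gene, other scalings, a covariate for the main axis within groups, a replicate block, and each library left out; share fits with a library left out kept the dispersion trend of all libraries. Within-group pairs of libraries had chi-square values of 2.07 to 65.6 per degree of freedom, so none was taken as a library deposited in duplicate. The tests were tried on simulated data.

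The member genes and lists were chosen with earlier results of these data known. Members chosen for single reporting were SQSTM1, MAP1LC3B, WIPI1, RETREG1, TEX264 and CCPG1. To these were added up to 12 other members called for averaged stress in total reads. Also added were those called in an auxin, line or difference comparison, and up to 10 called in labelled reads or share each, largest change first. Library values are printed for some of these members, and a range or a log2 difference for the rest. Members outside this choice are given by count, range or log2 difference, or are named as chosen after their values were seen. One listed gene is not reported here by name. Figures were drawn with matplotlib 3.10.9.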

Additional observations from a re-analysis of the deposited data

Results flagged for a closer look

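In 288 groups of 4 libraries (members chosen for single reporting, total reads and labelled percentage), the highest or lowest library was looked at for its distance from the rest. Chance flags about 1 in 20 such groups; 12 stood apart here, all from a gap that took most of the group's range.

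In total reads, replicate 1 of stressed, auxin-treated parental cells (the small library) had ATG12 at 2617 CPM, against 639 to 734 CPM in the other 3, and GABARAP at 581 CPM, against 161 to 191 CPM. TEX264 was high in replicate 2 of unstressed parental cells on auxin, at 30.9 CPM against 20.3 to 21.3 CPM. ATG2B was high in replicate 3 of the same group, at 13.7 CPM against 7.46 to 7.87 CPM. CCPG1 was low in replicate 4 of stressed tagged cells on vehicle, at 4.20 CPM against 8.62 to 9.20 CPM. GABARAPL1 was low in replicate 2 of stressed parental cells on vehicle, at 46.8 CPM against 66.2 to 68.6 CPM, and this is the library that overlapped with unstressed cells.

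In labelled percentage, the small library had ATG13 at 33.3%, against 14.9% to 16.5%, and GABARAP at 0.657%, against 5.22% to 5.43%. MAP1LC3B was at 10.6% in replicate 2 of unstressed parental cells on vehicle, against 8.79% to 9.00%, still below every stressed library. ATG101 was at 24.0% in replicate 1 of unstressed parental cells on auxin, against 16.6% to 17.3%. ATG12 was at 15.6% in replicate 2 of stressed tagged cells on vehicle, against 14.8% to 14.9%, a gap of under 1 percentage point. GABARAP was at 6.02% in replicate 1 of unstressed tagged cells on vehicle, against 3.63% to 3.72%.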

How the results depend on the processing

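For averaged stress, the counts of members called were 14 to 17 in total reads, 13 to 15 in labelled reads and 9 to 14 in the share over all settings that kept every library, and 13 to 17, 11 to 16 and 10 to 13 with 1 library left out. With centring dropped, the share of ATG12 turned to -0.10 (edgeR adjusted p = 0.206). Counts in total reads moved most, and the cause was not tested. Unless stated, the share of all genes called is not given beside the counts in this section. Such counts describe the settings and say nothing particular of the members. Adding the main within-group axis as a covariate gave 19 and 15 (parental cells, stress, vehicle and auxin), 9 and 7 (tagged), 7 and 14 (auxin in parental cells, unstressed and stressed), 7 and 4 (auxin in tagged cells), 1 and 5 (line, unstressed and stressed), 2 (stress, tagged minus parental) and 2 and 17 (auxin, tagged minus parental, unstressed and stressed). That covariate sums to 0 within each group, so it leaves the small library in its group's mean. With only the groups compared they were 1 and 7 (stress on auxin, parental and tagged), 3 (auxin, unstressed parental), 7 and 3 (auxin in tagged cells), 2 (line, stressed) and 1 (auxin, tagged minus parental, unstressed). DESeq2 gave 8 (stress, parental auxin), 1 and 1 (auxin in parental cells), 3 (auxin, unstressed tagged) and 1 and 1 (auxin, tagged minus parental). The longest region gave 2 (auxin, unstressed tagged). In labelled reads the axis gave 1 and 1 (auxin in parental cells), 2 (auxin, unstressed tagged) and 1 (auxin, tagged minus parental, stressed), scaling by total reads gave 5 (stress, tagged auxin) and 1 (auxin, unstressed tagged), and only the groups compared gave 1 (the latter). In the share, limma gave 3 (stress, parental vehicle), and no centring gave 3 (stress, tagged auxin) and 1 (auxin, unstressed parental; ATG3).

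With 1 library left out, counts in total reads for stress ran from 5 to 15 (parental vehicle), 4 to 9 (parental auxin), 3 to 8 (tagged vehicle) and 1 to 7 (tagged auxin). For auxin they ran from 0 to 5 (unstressed parental), 0 to 3 (stressed parental), 0 to 7 (unstressed tagged) and 0 to 2 (stressed tagged), and for the line in stressed cells from 0 to 2. For auxin, tagged minus parental, they ran from 0 to 1 unstressed and 0 to 3 stressed. In labelled reads auxin in unstressed tagged cells ran from 0 to 1, and in the share stress in tagged cells on auxin from 3 to 6. The highest counts for stress in total reads, and those for auxin in unstressed cells, came without the small library. For stress in parental cells on vehicle, 30.3% of all genes were then called, beside 12.9% with all libraries. For stress in parental cells on auxin, it was 9.3%, beside 10.5%. Pairing of libraries by replicate number was looked at without a test. Deviations of same-numbered libraries correlated at a median r of 0.0337 (-0.582 to 0.639), and those of other numbers at a median of -0.0173. Of 32 libraries, 12 were closest to their own number. The count to be had without pairing was not worked out, so these values do not decide whether numbers share a plate or day. The replicate block in edgeR gave 14 (total), 13 (labelled) and 12 (share) for averaged stress, as without it, and limma with the block gave 9 for the share. Members with few reads rest on few counts in single libraries: PIK3C3, RETREG1, ATG2B, ATG16L1, PIK3R4, ULK1, CCPG1 and RB1CC1 fell to 0, 1, 2, 3, 4, 5, 6 and 6 reads.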
